A study of Homo sapiens with 12 samples.

Results

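The genes described here are 4 chemokines and 5 NF-kB genes of HEK293 cells. They are CXCL8, CXCL1, CXCL2, CXCL3, NFKBIA, TNFAIP3, RELB, NFKB1 and NFKB2, 9 of the 36459 gene symbols in the table, and all 9 were among the 14209 genes with enough counts to be tested. They were chosen by symbol, with earlier results of these libraries already known, among them the value of CXCL8 in FAC against vehicle. The members' values in that comparison are therefore given as a description without a test.

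HEK293 is an established line of human embryonic kidney cells. The 12 RNA sequencing libraries form 4 groups of 3: cells given vehicle, cells given oleic acid (a monounsaturated fatty acid), cells given ferric ammonium citrate (FAC, an iron salt used here to induce ferroptosis, cell death by iron-driven lipid peroxidation), and cells given oleic acid and FAC together. All groups are the same unmodified line, and the labels state no genotype difference. The sources used here give no doses or treatment times, and do not say whether the 3 libraries of a group were separate cultures, so the p-values reflect the scatter among libraries, which may be technical.

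NF-kB is a family of dimeric transcription factors held in the cytoplasm by inhibitors until a receptor signal leads the IKK kinases to mark the inhibitor for destruction. The freed dimers bind short DNA sites and switch on chemokine genes. They also switch on genes that restrain or refill the pathway. NFKBIA encodes IkBα, the inhibitor that pulls dimers back out of the nucleus, and TNFAIP3 encodes A20, an enzyme that edits ubiquitin chains and dampens receptor signalling. NFKB1 (p105/p50), NFKB2 (p100/p52) and RELB encode NF-kB subunits and are themselves NF-kB targets. The 4 chemokines attract neutrophils, CXCL8 through the receptors CXCR1 and CXCR2 and the others mainly through CXCR2.

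The NF-kB sites upstream of the members are shown because such a site is the feature that ties both gene groups to 1 pathway. Of the 9 members, 8 had a promoter window in the RefSeq table (GRCh38.p14, from 250 bases before to 50 after a transcription start, 11 windows), and none was found for RELB. The 9-base site GGAATTTCC, searched on both strands, was present in the windows of 6 members: all 4 chemokines, NFKB1 and NFKBIA. It was present in 162 of all 35116 windows (0.461%). This exact sequence is a site that CXCL8 itself carries, and the members belong to the NF-kB pathway. The counts are therefore a description and no test of the members. The sites follow, on the strand of the gene with 10 bases on each side and the 9 bases in capitals. NFKBIA holds the match on the opposite strand, so its capitals are the reverse complement.
CXCL8 (chr4:73740468-73740496): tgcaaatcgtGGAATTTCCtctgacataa
CXCL1 (chr4:73869305-73869333): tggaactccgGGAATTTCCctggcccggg
CXCL2 (chr4:74099254-74099282): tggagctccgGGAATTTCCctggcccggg
CXCL3 (chr4:74038749-74038777): tggagctccgGGAATTTCCctggcccggc
NFKB1 (chr4:102501301-102501329): gacgtcagtgGGAATTTCCagccaggaag
NFKBIA (chr14:35404812-35404840): tgactggcttGGAAATTCCccgagcctga

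The sites of CXCL1, CXCL2 and CXCL3 shared most of their flanking bases, and the site of CXCL8 had others. Counted from the RefSeq start of the window, the match began 91 bases before the start in CXCL8, 78 in CXCL1, 77 in CXCL2, 78 in CXCL3, 81 in NFKBIA and 48 in NFKB1. The gene coordinates printed here are those of GENCODE 29, whose starts are the same for CXCL1 and NFKBIA and lie further upstream for the others, by 63 bases in CXCL8, 98 in CXCL2, 118 in CXCL3 and 30 in NFKB1. From the GENCODE start the match began 28 bases before it in CXCL8 and 18 before it in NFKB1, and 21 and 40 bases after it, inside the gene, in CXCL2 and CXCL3. The longer NF-kB consensus, also searched on both strands, was present in the windows of 7 members and in 11.3% of all windows. It overlapped the 9-base site in CXCL1, CXCL2, CXCL3, NFKB1 and NFKBIA, matched without it in TNFAIP3 and NFKB2, and had no match in CXCL8. The AP-1 element TGANTCA, the site of FOS and JUN dimers, was found on both strands in 7.71% of windows and, among the members, in that of CXCL8 only, starting 137 bases before the RefSeq start. The stretch of CXCL8 that carries the AP-1 element and the 9-base site, both in capitals, runs from the beginning of the window to the base before the GENCODE start.
CXCL8 (chr4:73740319-73740505, plus strand): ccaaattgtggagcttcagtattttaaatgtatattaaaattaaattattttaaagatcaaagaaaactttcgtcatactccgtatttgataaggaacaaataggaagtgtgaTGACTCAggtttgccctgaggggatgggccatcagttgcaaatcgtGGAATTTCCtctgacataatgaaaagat

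**Figure D1:**
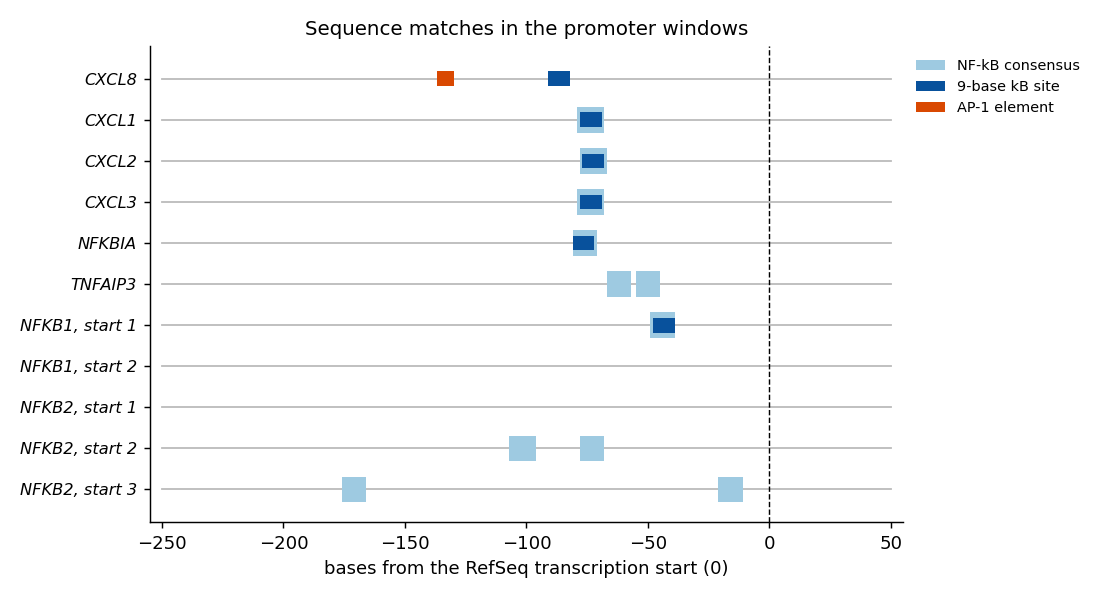
Positions of 3 sequence matches in the 11 promoter windows of the 8 members with one, with the distance in bases from the RefSeq transcription start on the x axis and 1 window per row. Dark blue bars mark the 9-base site GGAATTTCC, light blue bars the NF-kB consensus and the orange bar the AP-1 element. The 9-base site lies 77 to 91 bases before the RefSeq start in the 4 chemokines.

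Levels are CPM, counts scaled to a common library size, with trimmed mean of M values (TMM) factors that make libraries comparable. Library totals ran from 14098216 to 18717397 counts, so 3 counts, the most that a count of 0 allows, correspond to 0.158 to 0.224 CPM. Such limits cover counting error only. The third libraries given oleic acid, with and without FAC, stood apart. Their departure from the mean of the group correlated with transcript length (log2) at -0.489 and -0.644, against -0.359 to 0.52 in the other libraries; the correlation runs across 12222 genes, which do not count as replicates. Mitochondrially encoded genes held 12.1% of the counts of the third library with oleic acid + FAC and 3.33 to 7.5% elsewhere. Of 14 HEK293 markers, 1 stayed under 1 CPM in every library, PAX8 with 0 to 7 counts, and the others were counted in every library. The most abundant of them, the cytoskeletal gene VIM, was at 583 to 1427 CPM. Of 7 neutrophil markers, 4 had no count in any library and the 7 summed to at most 0.455 CPM. Of 10 monocyte and macrophage markers, 3 had no count and the 10 summed to 3.01 to 4.85 CPM in vehicle, 3.97 to 4.96 in oleic acid, 3.79 to 5.37 in FAC and 4.37 to 4.47 in oleic acid + FAC, mostly CD68, a lysosomal protein gene.

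The TPM scale (counts per length, scaled to a common sum) used the same length for a gene in all libraries and no TMM factors. Within a gene, TPM and CPM therefore differ only by how libraries were scaled. Compared per transcript length on the TPM scale, NFKBIA had the highest mean level of the members in vehicle, 43.7 ± 7.17 (SD, n = 3). NFKB1 followed at 17.8 ± 0.917 TPM and NFKB2 at 13.4 ± 1.84 TPM. CXCL1 (6.79 ± 2.67 TPM), CXCL8 (6.67 ± 1.76 TPM) and RELB (5.78 ± 0.400 TPM) came next and lay within their spread of each other. TNFAIP3 was at 4.49 ± 0.60 TPM, CXCL3 at 2.79 ± 0.803 TPM and CXCL2 at 1.38 ± 1.01 TPM. Neighbours in this order from CXCL1 down to CXCL2 differed by less than the sum of their SDs, except RELB from TNFAIP3 and TNFAIP3 from CXCL3. In FAC, the order below NFKB2 (15.4 ± 2.50 TPM) was RELB at 7.71 ± 1.88, TNFAIP3 at 3.42 ± 1.13, CXCL1 at 2.59 ± 0.919, CXCL8 at 1.69 ± 0.680, CXCL3 at 1.48 ± 0.584 and CXCL2 at 0.636 ± 0.332 TPM.

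CXCL8, a chemokine also named interleukin 8, was lower in all 6 libraries with FAC than in all 6 without it, on the CPM and the TPM scale. The gene lies at chr4:73740506-73743716 (GRCh38, plus strand). Its 3 vehicle libraries had 125, 95 and 79 counts (7.72, 5.50 and 4.35 CPM) and its 3 FAC libraries 27, 35 and 16 counts (1.76, 1.84 and 0.955 CPM). Its oleic acid libraries had 105, 129 and 67 counts (6.13, 6.92 and 5.01 CPM) and its oleic acid + FAC libraries 45, 42 and 32 counts (2.62, 2.38 and 2.27 CPM). The groups with FAC did not overlap those without it, and the lowest library without FAC, the third vehicle library, was above the highest with it, the first oleic acid + FAC library. In such bulk libraries a smaller share of cells expressing the gene and less RNA per cell cannot be told apart.

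The mean CXCL8 level was 5.86 ± 1.71 CPM in vehicle and 1.52 ± 0.489 CPM in FAC (SD, n = 3 each), so FAC left 25.9% of the vehicle level, a log2 fold change of -1.94 (SE 0.29). In oleic acid + FAC against oleic acid, which shares no library with FAC against vehicle, CXCL8 fell from 6.02 ± 0.964 to 2.42 ± 0.177 CPM, to 40.3%. That log2 fold change was -1.31 (SE 0.28, 95% interval -1.91 to -0.71) with an adjusted p of 0.031 by edgeR's quasi-likelihood test with Benjamini-Hochberg adjustment over the 14209 genes. The size of the difference was kept in all 13 alternative settings (-1.42 to -1.20), whereas the adjusted p, 0.00127 to 0.124, passed in 6 of them. It missed the threshold without the first (0.102) or the second (0.115) oleic acid library, without the first (0.0721), the second (0.12) or the third (0.09) oleic acid + FAC library, without the third library of both groups (0.05 as rounded), and with only the 6 libraries of both groups in the fit (0.124).

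CXCL1 encodes a chemokine first known as a growth factor of melanoma cells (chr4:73869393-73871242, plus strand). It had 70, 87 and 40 counts in vehicle (4.32, 5.04 and 2.2 CPM) and 25, 35 and 18 in FAC (1.63, 1.84 and 1.07 CPM). Its counts were 59, 62 and 29 in oleic acid (3.45, 3.33 and 2.17 CPM) and 19, 30 and 9 in oleic acid + FAC (1.11, 1.70 and 0.639 CPM). On the CPM scale no library with FAC reached the level of any library without it, although the gap between the second FAC library (1.84 CPM) and the third oleic acid library (2.17 CPM) was small. On the TPM scale these 2 libraries of CXCL1 overlapped (3.43 and 2.97 TPM), while FAC stayed below vehicle and oleic acid + FAC below oleic acid. The log2 fold change was -1.34 (SE 0.39) in FAC against vehicle, 39.3% of the vehicle level. It was -1.36 (SE 0.41, 95% interval -2.24 to -0.48) in oleic acid + FAC against oleic acid, which did not pass (edgeR adjusted p = 0.11). With the replicate number as a block in the same fit it was -1.40 and passed (edgeR adjusted p = 0.0116), and it passed with DESeq2 (adjusted p = 0.038). It passed in no other of its 13 alternatives, whose adjusted p ran up to 0.31.

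CXCL3 and CXCL2 encode close relatives of CXCL1 and lie on the minus strand (chr4:74036589-74038807 and chr4:74097035-74099293). CXCL3 had 21, 35 and 25 counts in vehicle, 16, 19 and 9 in FAC, 16, 26 and 25 in oleic acid and 11, 14 and 5 in oleic acid + FAC. FAC lay below vehicle and oleic acid + FAC below oleic acid in all libraries, while the highest FAC library (1.04 CPM) exceeded the lowest oleic acid library (0.934 CPM). Its log2 fold change was -0.86 (SE 0.41) in FAC against vehicle. It was -1.19 (SE 0.43, 95% interval -2.11 to -0.27; edgeR adjusted p = 0.189) in oleic acid + FAC against oleic acid, which did not pass.

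CXCL2 was near the detection floor, with 1 to 23 counts in a library. It had 23, 16 and 3 counts in vehicle, 12, 18 and 5 in oleic acid, 8, 9 and 3 in FAC and 6, 13 and 1 in oleic acid + FAC. All groups overlapped, and the lowest library of each group held 5 counts or fewer. The log2 fold changes were -1.07 (SE 0.75) in FAC against vehicle and -0.79 (SE 0.76, 95% interval -2.44 to 0.87; edgeR adjusted p = 0.65) in oleic acid + FAC against oleic acid, so a difference was not detectable at this depth.

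**Figure D2:**
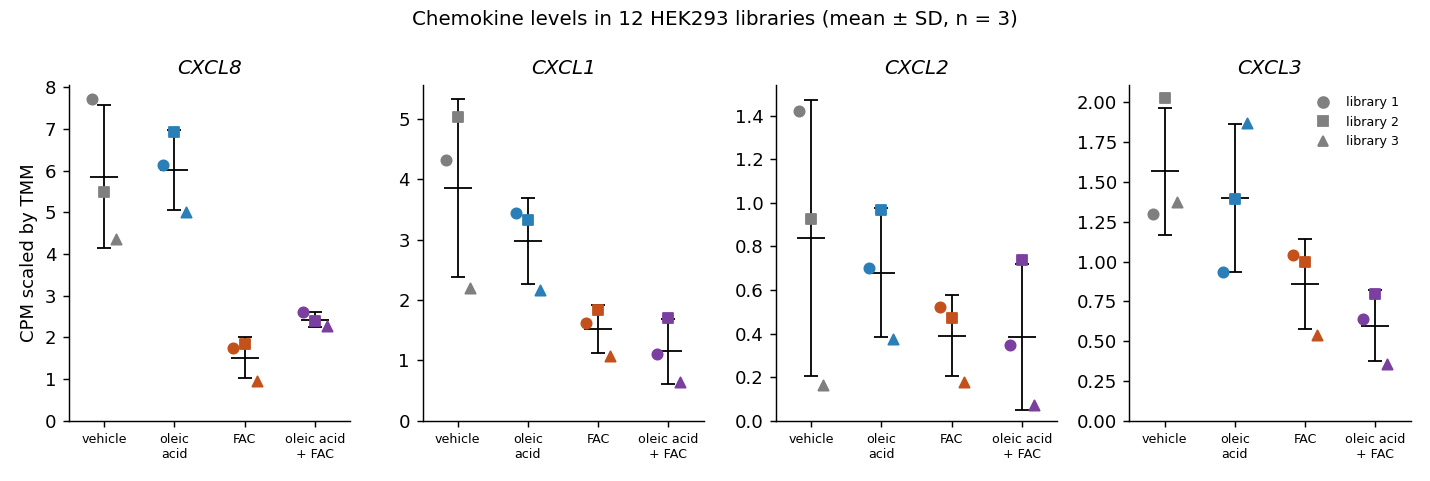
CPM scaled by TMM of the 4 chemokines in the 12 libraries; points are libraries, with a shape for each replicate number, and bars are the mean ± SD of 3 libraries. The y axes differ between genes. On this scale CXCL8 and CXCL1 are lower in the 6 libraries with FAC than in the 6 without, and CXCL2 overlaps between all groups.

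CXCL1, CXCL2 and CXCL3 are near copies of each other, which bears on how reads were assigned. Of the 31-base words of its most counted transcript, 15.5% in CXCL1, 20.4% in CXCL2 and 9.57% in CXCL3 occurred in a transcript of another member. For CXCL8 and the 5 NF-kB genes this share was 0. Values of CXCL1, CXCL2 and CXCL3 are uncertain for this reason, since the counting software divides shared reads by estimate. These shares do not measure the size of that uncertainty, and genes other than the members were not searched. A single protein-coding transcript held 95% of the counts of CXCL8, and another 96.1% of those of CXCL1.

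The 4 chemokine members lie within 358788 bases of chromosome 4 that hold 9 protein-coding genes, all of the same family. CXCL5, another chemokine that acts on CXCR2, lies between CXCL1 and CXCL3. It had 1.96 ± 0.463 CPM in vehicle, 2.67 ± 0.911 in FAC, 2.41 ± 0.430 in oleic acid and 2.88 ± 0.482 in oleic acid + FAC. Its log2 fold changes of 0.46 (SE 0.31, edgeR adjusted p = 0.65) in FAC against vehicle and 0.26 (SE 0.30, edgeR adjusted p = 0.717) in oleic acid + FAC against oleic acid were positive and did not pass, whereas those of CXCL8, CXCL1 and CXCL3 were negative. CXCL6 had 0 to 18 counts in a library and was not tested. PF4 had at most 2 counts, PF4V1 at most 1 and PPBP none in any library.

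None of the 5 NF-kB genes passed the test in oleic acid + FAC against oleic acid, and in both FAC comparisons their log2 fold changes lay between -0.43 and 0.47. NFKBIA (chr14:35401511-35404749, minus strand) had 39.9, 38.4 and 28.9 CPM in vehicle, 37.5, 35.4 and 29.6 in FAC, 34.5, 38.7 and 40.6 in oleic acid and 34.7, 40.3 and 38.2 in oleic acid + FAC. All 4 groups overlapped. Its log2 fold change was -0.06 (SE 0.14) in FAC against vehicle and -0.01 (SE 0.14, 95% interval -0.31 to 0.30; edgeR adjusted p = 0.988) in oleic acid + FAC against oleic acid, an interval that does not reach the values of CXCL8 or CXCL1.

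TNFAIP3 (chr6:137867188-137883312, plus strand) had 9.39, 11.1 and 9.31 CPM in vehicle and 8.78, 9.06 and 5.61 in FAC. It had 9.63, 9.66 and 5.38 CPM in oleic acid and 8.96, 7.66 and 5.33 in oleic acid + FAC. FAC lay just below vehicle without overlap in CPM, but not in TPM, and the third library was far below the other 2 in each group but vehicle. The log2 fold changes were -0.35 (SE 0.26) in FAC against vehicle and -0.17 (SE 0.26, 95% interval -0.74 to 0.40; edgeR adjusted p = 0.788) in oleic acid + FAC against oleic acid.

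Among the subunit genes, RELB was the one with higher CPM in all FAC libraries than in all vehicle libraries; in TPM they overlapped. RELB, whose product pairs with p52 in the slower arm of the pathway (chr19:45001430-45038198, plus strand), had 7.17, 7.0 and 6.28 CPM in vehicle and 10.3, 10.2 and 7.76 in FAC. It had 9.05, 6.55 and 7.17 CPM in oleic acid and 8.38, 9.59 and 7.31 in oleic acid + FAC, which overlapped. Its log2 fold change was 0.47 (SE 0.18) in FAC against vehicle and 0.15 (SE 0.18, 95% interval -0.24 to 0.55; edgeR adjusted p = 0.719) in oleic acid + FAC against oleic acid.

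NFKB1 (chr4:102501329-102617302, plus strand) had 34.8, 35.7 and 36.2 CPM in vehicle and 35.1, 34.0 and 27.1 in FAC. It had 40.4, 36.9 and 25.6 CPM in oleic acid and 32.8, 26.2 and 17.5 in oleic acid + FAC. The third library was the lowest in the last 3 groups, and both pairs of groups overlapped. Its log2 fold changes were -0.15 (SE 0.21) and -0.43 (SE 0.21, 95% interval -0.88 to 0.03; edgeR adjusted p = 0.352) for the same 2 comparisons.

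NFKB2 (chr10:102394110-102402529, plus strand) had 25.4, 21.1 and 18.5 CPM in vehicle, 27.3, 26.5 and 23.9 in FAC, 27.7, 22.2 and 28.2 in oleic acid and 28.9, 28 and 29.8 in oleic acid + FAC. Both pairs of groups overlapped. Vehicle had the lowest mean, 21.7 ± 3.5 CPM, and oleic acid + FAC the highest, 28.9 ± 0.857 CPM. The log2 fold changes were 0.26 (SE 0.14) in FAC against vehicle and 0.15 (SE 0.14, 95% interval -0.15 to 0.45; edgeR adjusted p = 0.624) in oleic acid + FAC against oleic acid.

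**Figure D3:**
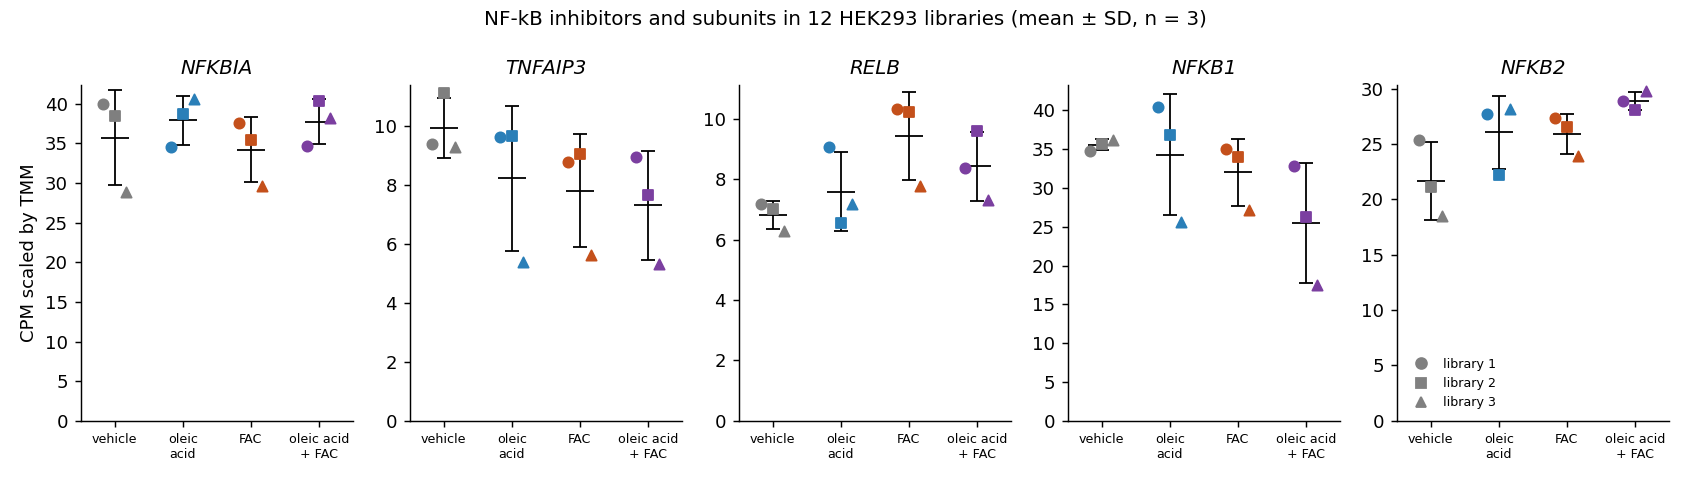
CPM scaled by TMM of the 5 NF-kB genes in the 12 libraries; points are libraries, with a shape for each replicate number, and bars are the mean ± SD of 3 libraries. The y axes start at 0 and differ between genes. RELB is higher in the 3 FAC libraries than in the 3 vehicle libraries on this scale, and the third library is low for TNFAIP3 and NFKB1 in the groups other than vehicle.

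In FAC against vehicle, the groups did not overlap in CPM for 5 of the 9 members: CXCL8, CXCL1, CXCL3 and TNFAIP3 were lower and RELB was higher. Over all 14209 genes, 12.4% were lower and 10% were higher without overlap. In that comparison 169 genes passed the test (1.19%). CXCL8, CXCL1 and CXCL3 were also lower without overlap in oleic acid + FAC against oleic acid, as were 10.3% of all genes. All 6 libraries with FAC lay below all 6 without it for CXCL8 and CXCL1, against 4.04% of all genes. The value of CXCL8 in FAC against vehicle was known when the members were chosen. Counts that use the FAC and vehicle libraries are therefore a description and no test of the members. On the TPM scale, an alternative chosen after seeing the data, 3 members were lower in FAC against vehicle (CXCL8, CXCL1 and CXCL3) and 0 higher, 3 were lower in oleic acid + FAC against oleic acid, and CXCL8 alone was lower in all 6 libraries with FAC. The shares of all genes above are those in CPM. None was counted in TPM, so the TPM counts of members have no share to stand beside. The replicate number moved with these levels too: the third library was the lowest of its group in all 4 groups for CXCL8, CXCL1, CXCL2 and TNFAIP3, and with the replicate number as a block in the fit CXCL8 had a log2 fold change of -1.31 (edgeR adjusted p = 0.00824) in oleic acid + FAC against oleic acid.

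The test called 1 of the 9 members, CXCL8, in oleic acid + FAC against oleic acid, where it called 314 of 14209 genes (2.21%; 1.45% fell). With the replicate block it called 2 members, CXCL8 and CXCL1, and 740 of all genes (5.21%). At an unadjusted p under 0.05 it called 3 members, CXCL8, CXCL1 and CXCL3, all lower, against 9.25% of all genes lower by that rule. The median log2 fold change of the 9 members was -0.35 in FAC against vehicle and -0.43 in oleic acid + FAC against oleic acid, against 0.01 and 0.00 for all genes tested.

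The effect of the fatty acid in the absence of iron salt was read from oleic acid against vehicle, which shares the vehicle libraries with FAC against vehicle. No member passed (edgeR, adjusted p = 1 for each), and none had an unadjusted p under 0.05; edgeR called no gene at all (0%; 118 genes, 0.83%, at an unadjusted p under 0.05), and DESeq2 and limma-voom called no member. CXCL8 was at 102.8% of the vehicle level, with a log2 fold change of 0.05 and a 95% interval of -0.53 to 0.62. CXCL1 had a log2 fold change of -0.36 (95% interval -1.17 to 0.45) and NFKBIA one of 0.09 (95% interval -0.22 to 0.39). NFKB2 had the lowest unadjusted p of the members, 0.0759, with a log2 fold change of 0.27 (95% interval -0.03 to 0.56; edgeR adjusted p = 1).

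Oleic acid + FAC against FAC asks, as the series title does, whether oleic acid alters the state of iron-loaded cells. It shares the FAC libraries with FAC against vehicle, in which the low CXCL8 level was known when the gene was chosen. No member passed in edgeR, whose adjusted p ran from 0.707 to 0.991, or in DESeq2 or limma-voom. Over all genes edgeR called 0 (0%; 576 genes, 4.05%, at an unadjusted p under 0.05) and DESeq2 called 1. CXCL8 was the member with an unadjusted p under 0.05 (0.0429; adjusted p = 0.707 in edgeR): its level with oleic acid was 159.7% of that with FAC alone, a log2 fold change of 0.67 (95% interval 0.02 to 1.32), and all 3 libraries were above all 3 FAC libraries. CXCL1 had a log2 fold change of -0.38 (95% interval -1.29 to 0.53), opposite in sign to that of CXCL8, and CXCL3 one of -0.50 (95% interval -1.45 to 0.45).

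Whether the FAC effect differed with oleic acid was tested by the interaction, which uses all 12 libraries and so includes those of FAC against vehicle. No member passed (edgeR, adjusted p = 1 for each; none at an unadjusted p under 0.05), as for all genes (0%; 116, 0.816%, at an unadjusted p under 0.05), and DESeq2 and limma-voom called no member either. For CXCL8 the 2 FAC effects, -1.94 without oleic acid and -1.31 with it, differed by 0.63 on the log2 scale (SE 0.40, 95% interval -0.24 to 1.49). For CXCL1 they differed by -0.02 (95% interval -1.17 to 1.13), and for NFKBIA by 0.06 (95% interval -0.38 to 0.49).

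**Figure D4:**
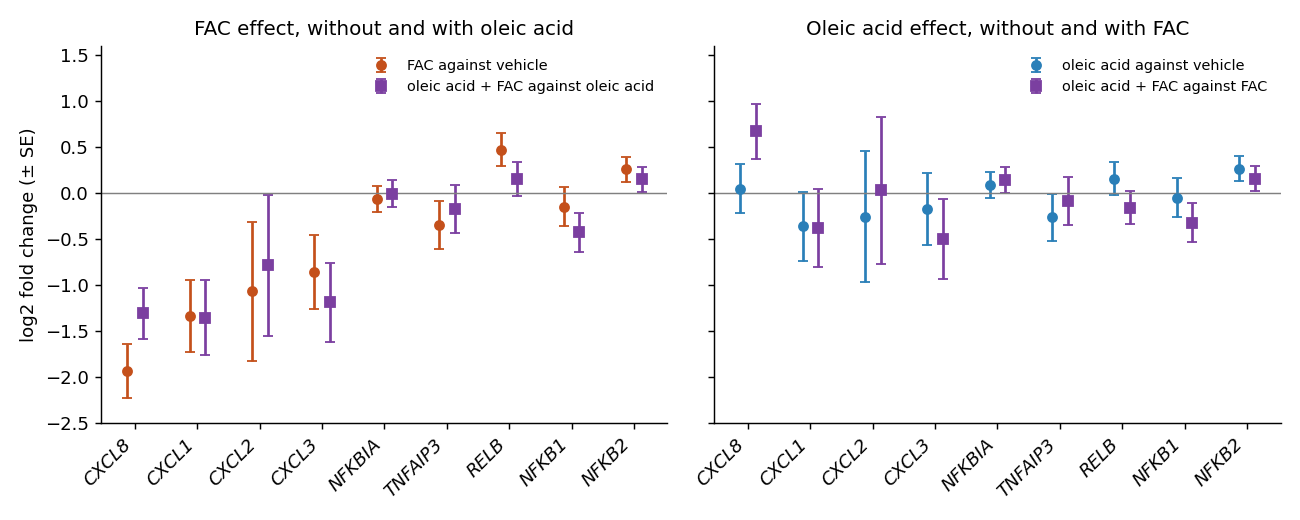
Log2 fold changes of the 9 members with their standard errors (bars) from 1 fit of all 12 libraries. The left panel sets FAC against vehicle beside oleic acid + FAC against oleic acid, and the right panel sets oleic acid against vehicle beside oleic acid + FAC against FAC. CXCL8, CXCL1 and CXCL3 have log2 fold changes from -1.94 to -0.86 in the left panel, the bars of CXCL2 are the widest there, and the NF-kB genes lie between -0.43 and 0.47.

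The other genes of the pathway were taken from 10 lists with 224 genes, of which 148 were tested. The lists were drawn up with earlier results of these data known, so the counts of genes that passed are not independent of that choice. In FAC against vehicle 1 of the 148 rose and 0 fell, and in oleic acid + FAC against oleic acid 3 rose and 1 fell. Of all genes tested, 0.457% rose and 0.732% fell in FAC against vehicle, and 0.76% rose and 1.45% fell in oleic acid + FAC against oleic acid. The counts below at an unadjusted p under 0.05 stand beside 12.1% and 16.1% of all genes in these comparisons. For the 148, the median log2 fold changes were -0.01 and -0.04, against 0.01 and 0.00 for all genes tested.

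Most of the machinery that carries the signal had enough counts to be tested. This held for all 18 subunits and IKK kinases in the data and for 29 of 30 adaptors and ubiquitin regulators. The adaptor list reached down to the floor, with 1 to 7 counts in a library for the gene left out and 6 to 18 for the lowest tested. Of 18 subunits and IKK kinases tested, none passed in either comparison by edgeR, with 2 and 4 at an unadjusted p under 0.05 and medians of -0.10 and -0.16. RELA, the main activating subunit, had 95.4 ± 2.2 CPM in vehicle and 91.3 ± 2.53 in FAC, a log2 fold change of -0.06 (SE 0.10; edgeR adjusted p = 0.907). The kinase genes CHUK and IKBKB had log2 fold changes of -0.48 (SE 0.16) and -0.45 (SE 0.14) in FAC against vehicle, with edgeR adjusted p of 0.203 and 0.16. They had -0.56 (SE 0.16) and -0.54 (SE 0.14) in oleic acid + FAC against oleic acid, with edgeR adjusted p of 0.0918 and 0.0684. IKBKG, the kinases' scaffold, had -0.30 and -0.15, and REL, a subunit of lymphoid cells, 0.24 and -0.11, none of which passed. Of 29 adaptors and ubiquitin regulators tested, none passed in either comparison, with 4 at an unadjusted p under 0.05 in each and medians of -0.04 and -0.12.

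Most ligands were at or near the floor, whereas most receptors had enough counts to be tested. Of 14 ligands, 2 were tested: TNF, the founding ligand of the pathway, with 6 to 32 counts in a library, and TNFSF12, with 9 to 43. TNF had a log2 fold change of -1.01 (SE 0.48; edgeR adjusted p = 0.433) in FAC against vehicle and -0.19 (SE 0.47; edgeR adjusted p = 0.887) in oleic acid + FAC against oleic acid. IL1B had 1 count in all 12 libraries together, and IL1A at most 5 in a library. Of 29 receptors 16 were tested, with 5 and 4 at an unadjusted p under 0.05 (edgeR) and median log2 fold changes of -0.10 and -0.29. TNFRSF1A, the main TNF receptor, had 54.7 ± 1.43 CPM in vehicle and 58.5 ± 7.94 in FAC, and passed in neither comparison, and TLR4 had at most 1 count in a library. CXCR1 had no count in any library and CXCR2 at most 5, so receptors for the 4 chemokines were at the floor in these cells.

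TNFRSF11A, which encodes the receptor RANK, fell by 0.56 on the log2 scale in oleic acid + FAC against oleic acid (SE 0.13; edgeR adjusted p = 0.049), from 13.7 ± 2.04 to 9.24 ± 0.452 CPM. It passed in 3 of 13 alternatives, where the adjusted p ran from 0.0113 to 0.283. It failed without the first (0.128) or second (0.197) oleic acid library and without the first (0.116), second (0.121) or the third (0.129) oleic acid + FAC library. In FAC against vehicle its log2 fold change was -0.47 (SE 0.13; edgeR adjusted p = 0.129).

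Of 31 other chemokines 7 were tested and none passed in either comparison, with 0 at an unadjusted p under 0.05 and medians of 0.23 and 0.16. CXCL16, a membrane-bound chemokine, was the most counted of those named here, with 14.7 ± 2.66 CPM in vehicle and 15.1 ± 1.71 in FAC. CCL20, a chemokine for cells bearing CCR6 and an NF-kB target, had 3.67 ± 0.875 CPM in vehicle and 3.45 ± 0.597 in FAC (log2 fold change -0.09, SE 0.28; edgeR adjusted p = 0.954). The ligands, PAX8, FOS, TLR4, CXCR1, CXCR2, CXCL16, CCL20, CXCL5 and the other genes of the chromosome 4 cluster are named outside the rule for named genes. They were named after their values were seen.

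Of 49 other NF-kB target genes 39 were tested. None passed in FAC against vehicle, with 2 at an unadjusted p under 0.05 and a median log2 fold change of 0.01. In oleic acid + FAC against oleic acid 5 had an unadjusted p under 0.05 (edgeR), and 1 of them rose past the test. That gene, IRF2, a repressor of interferon responses, rose by 0.99 on the log2 scale (SE 0.18; edgeR adjusted p = 0.0145), from 5.53 ± 0.592 to 11 ± 2.25 CPM. It passed in 9 of 13 alternatives (adjusted p from 7.81e-05 to 0.153) and failed without the first (0.0702) or second (0.0643) oleic acid library or the second oleic acid + FAC library (0.0508). In FAC against vehicle its log2 fold change was 0.52 (SE 0.17; edgeR adjusted p = 0.205).

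AP-1 and C/EBP factors also bind chemokine promoters. The immediate-early gene EGR1, of neither family, was listed with them, with earlier results of these data known. Of the 14, only EGR1 passed, and the medians of the list were 0.21 and 0.25. At an unadjusted p under 0.05 (edgeR) there were 5 and 4 of the 14, all of them higher. FOS came closest to passing among the others, with log2 fold changes of 1.68 (SE 0.39, edgeR adjusted p = 0.0578) and 1.45 (SE 0.38, edgeR adjusted p = 0.0704). EGR1 rose from 28.4 ± 6.36 CPM in vehicle to 92.5 ± 19.9 in FAC, by 1.71 on the log2 scale (SE 0.24; edgeR adjusted p = 0.00514), and passed in all 13 alternatives. It rose from 50.5 ± 7.26 CPM in oleic acid to 101 ± 28.3 in oleic acid + FAC, by 1.00 (SE 0.23; edgeR adjusted p = 0.0417). There it passed in 5 of 13 alternatives, where the adjusted p ran from 0.00164 to 0.162, and failed without the first (0.0884), second (0.149) or the third (0.0677) oleic acid library and without the second (0.143) or the third (0.123) oleic acid + FAC library.

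Of 22 genes in the list of MAP kinases, 5 and 3 had an unadjusted p under 0.05 (edgeR) in the same 2 comparisons. DUSP1, a phosphatase that switches off MAP kinases, was the 1 gene in that list that passed. It rose by 0.58 on the log2 scale in oleic acid + FAC against oleic acid (SE 0.11; edgeR adjusted p = 0.0182), from 60.4 ± 3.14 to 90.2 ± 8.05 CPM. It passed in 9 of 13 alternatives (adjusted p from 1.13e-05 to 0.162) and failed without the first (0.0592) or second (0.0698) oleic acid library or the second oleic acid + FAC library (0.0643). In FAC against vehicle its log2 fold change was 0.37 (SE 0.11; edgeR adjusted p = 0.132). AU-rich elements mark chemokine mRNAs for decay. Of the 12 genes listed under AU-rich element binding, not all of whose products bind such elements, none passed in either comparison. At an unadjusted p under 0.05 (edgeR) there were 4 and 1.

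**Figure D5:**
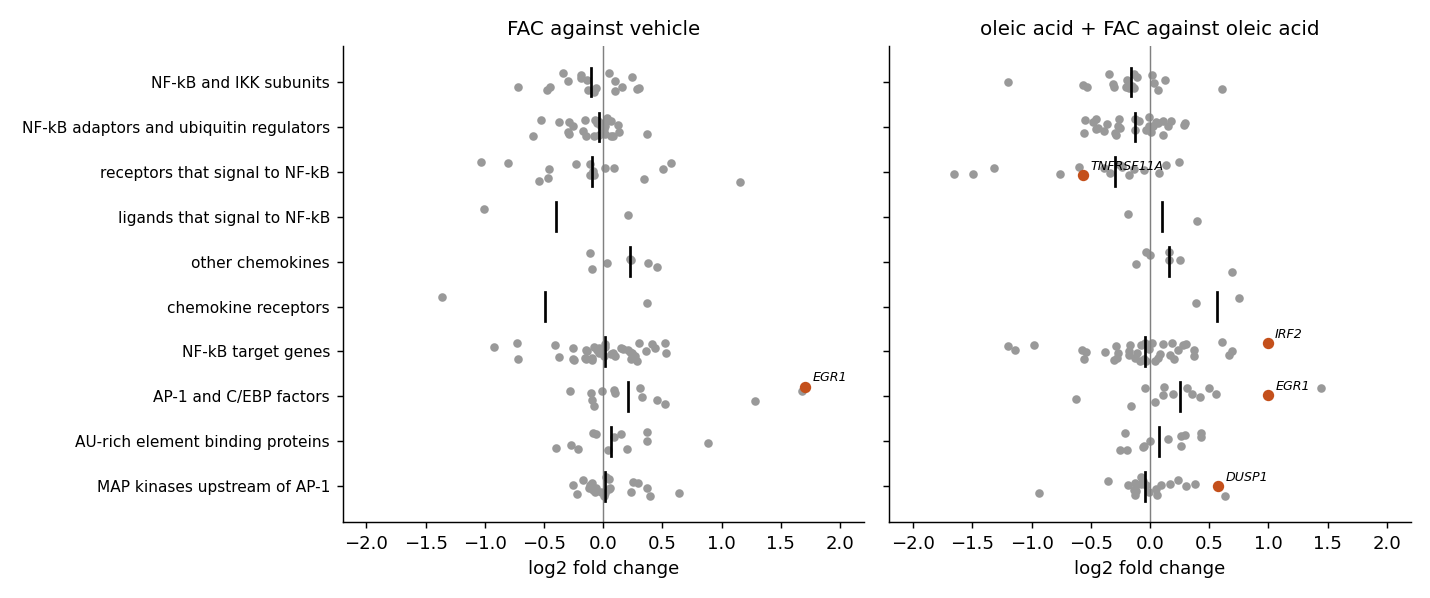
Log2 fold changes of the 148 tested pathway genes, 1 point per gene and list, in FAC against vehicle (left) and oleic acid + FAC against oleic acid (right); black bars are list medians and orange points passed edgeR's test at an adjusted p under 0.05. EGR1 passed in both panels, and IRF2, DUSP1 and TNFRSF11A in the right one; a gene on several lists is drawn in each.

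The genes with the most similar pattern were found by the root mean square difference between log2 CPM profiles over the 12 libraries, after the mean of each gene was removed, with genes below a mean log2 CPM of 1 left out. For CXCL8 they were PYCR3 (0.323), an enzyme of proline synthesis, JMJD4 (0.38) and ZNF365 (0.391). PYCR3 had 24.7 ± 2.87 CPM in vehicle, 9.14 ± 0.587 in FAC, 26.9 ± 2.2 in oleic acid and 10.5 ± 0.351 in oleic acid + FAC, the same order of groups with and without FAC as CXCL8. For CXCL1 they were DLX3 (0.326), PRRT3 (0.359) and CHDH (0.363), and for CXCL3 DLX3 (0.241), NICN1 (0.285) and KRBA1 (0.314). CXCL2 was closest to CXCL1 (0.513), with which it shares sequence.

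The NF-kB genes had other neighbours. NFKBIA was closest to PRKCSH (0.0817), NFKB1 to CORO2A (0.0725), TNFAIP3 to ATP2A3 (0.12), RELB to CAP2 (0.0943) and NFKB2 to LYPD1 (0.0973). Among the members themselves, the smallest differences were those of TNFAIP3 and NFKB1 (0.175), NFKBIA and NFKB2 (0.186) and RELB and NFKB2 (0.194). CXCL8 differed from CXCL1 by 0.546 and from the 5 NF-kB genes by 0.77 to 1.02. Genes that vary less have smaller differences, and ranking by Pearson correlation instead shared 0 to 2 of the 3 closest genes per member.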

How the data were processed

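RNA was measured in 12 HEK293 libraries by poly-A sequencing with Illumina TruSeq chemistry, per the labels' protocols. The authors deposited estimated counts per gene symbol and per transcript, per the labels; the tools in the submitters' processing notes are kallisto 0.46.1, bcl2fastq 2.19 and sleuth 0.30.0, and the builds GRCh38.p12 and hg38. The values were already whole numbers. Groups and replicate numbers came from the labels.

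Genes were kept by filterByExpr in edgeR 4.0.16 (R 4.3.3; minimum count 10), scaled by TMM, and fitted in 1 quasi-likelihood model of 14209 genes with a mean per group; F tests were two-sided, with Benjamini-Hochberg adjustment over all genes and a threshold of 0.05. Standard errors and 95% intervals came from the F statistic. The design was checked on simulated counts. Alternatives were DESeq2 1.42.0, its size factors within edgeR, limma-voom (limma 3.58.1), no filter, a replicate block, the compared libraries only, and leaving out libraries.

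Same-numbered libraries deviated from their group means together in oleic acid + FAC and oleic acid (correlations 0.675, 0.48 and 0.745) and in oleic acid + FAC and FAC (0.3, 0.397 and 0.51), but not in all pairs of vehicle and FAC (0.362, 0.544 and 0.04) or of vehicle and oleic acid (-0.147, 0.415 and -0.093). The pairing comes from the data, not from the labels. Every replicate pair within a group differed by more than counting noise (8.54 to 130.02 chi-square units per degree of freedom).

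TPM used gene counts divided by the count-weighted mean length of the gene's transcripts in GENCODE 29, because the matched transcripts held only 3707 of 6468 counts for NFKB1 and 3478 of 5110 for NFKB2. Promoter and site letters came from RefSeq (GRCh38.p14), and motifs and shared words were found with Python 3.11.15 and pandas 2.3.3.

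The members and lists were chosen with earlier results of these data known. By rule, named genes were all members, the 6 fixed pathway genes RELA, REL, IKBKB, CHUK, IKBKG and TNFRSF1A, up to 4 listed genes per list with the largest change among those past the test, the most abundant gene of each cell type list and the genes of closest pattern; others named are given as such in the text. The other marker lists gave these values: mature kidney, 7 of 11 genes without a count, most abundant LRP2 at 2.76 to 12.2 CPM; lymphocytes, 4 of 9 without a count, most abundant CD79A at 0.158 to 0.908 CPM; neutrophils, most abundant CSF3R at 0 to 0.325 CPM; fibroblasts, 0 of 7 without a count, most abundant COL1A1 at 9.41 to 17.9 CPM; endothelium, 1 of 7 without a count, most abundant ESAM at 0.494 to 1.32 CPM. The monocyte marker CD68 was at 2.49 to 4.08 CPM.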

Additional observations from a re-analysis of the deposited data

How the results depend on the processing

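The FAC effects of CXCL8, CXCL1 and CXCL3 stayed negative in all alternatives run, in FAC against vehicle and in oleic acid + FAC against oleic acid. CXCL2 ran from -1.56 to -0.46 in FAC against vehicle without each library in turn, and DESeq2 gave no adjusted p for it in oleic acid + FAC against oleic acid. In oleic acid + FAC against oleic acid, the members called were 2 with DESeq2 and with the replicate block (CXCL1 and CXCL8), 0 with only the libraries compared and without the third oleic acid and oleic acid + FAC libraries, and 0 to 1 without each library in turn. CXCL8 missed the threshold with only the libraries compared (-1.31, adjusted p = 0.124) and without the third oleic acid and oleic acid + FAC libraries (-1.38, adjusted p = 0.05), and ran from -1.42 to -1.20 without each library in turn. Pathway genes called in FAC against vehicle, 1, became 10 with DESeq2, 2 without the filter, 7 with the replicate block, 4 with only the libraries compared and 12 without the third oleic acid and oleic acid + FAC libraries. In the same settings and order, the 169 calls over all genes became 498, 160, 431, 351 and 672. In oleic acid + FAC against oleic acid, 4 became 11 with DESeq2, 2 with limma-voom, 14 with the replicate block, 0 with only the libraries compared and 0 to 4 without each library in turn. There the 314 calls over all genes became 740 with the replicate block and 55 to 449 without each library in turn. Over all genes, 169 calls in FAC against vehicle became 27 (without the third vehicle library) to 672 (without the third oleic acid and oleic acid + FAC libraries), and 314 in oleic acid + FAC against oleic acid became 19 (only the libraries compared) to 761 (DESeq2). On the TPM scale, added after seeing the data, 0 members were higher without overlap in FAC against vehicle and 1 was lower in all 6 libraries with FAC. The share of all genes was not counted on that scale. The causes were not tested.

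Signs turned only for values near 0 or genes near the floor. In FAC against vehicle, NFKBIA ran from -0.197 to 0.0291 without each library in turn. In oleic acid + FAC against oleic acid, NFKBIA was 0.0078 with DESeq2 size factors, 0.0083 with DESeq2 and 0.0404 without the third oleic acid and oleic acid + FAC libraries, and ran from -0.0692 to 0.0511 without each library in turn; TNFAIP3 ran from -0.39 to 0.0085. In oleic acid against vehicle, CXCL2 was 0.13 with limma-voom and 0.0055 without the third oleic acid and oleic acid + FAC libraries, and NFKB1 was 0.12 without the third oleic acid and oleic acid + FAC libraries. Without each library in turn, CXCL8 ran from -0.13 to 0.29, CXCL2 from -0.75 to 0.35, CXCL3 from -0.42 to 0.0555, NFKBIA from -0.047 to 0.17 and NFKB1 from -0.18 to 0.12. In oleic acid + FAC against FAC, CXCL2 was -0.24 with limma-voom and -0.0689 with the replicate block and TNFAIP3 was 0.077 without the third oleic acid and oleic acid + FAC libraries; without each library in turn CXCL2 ran from -0.81 to 0.47 and TNFAIP3 from -0.28 to 0.0895. The block changed no member's call but that of CXCL1. With the longest transcript as length, vehicle levels became 9.04 TPM for CXCL8 and 9.30 TPM for CXCL1. At 1 to 23 counts a library, CXCL2 supports no statement on its direction.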
